A study of Homo sapiens with 4 samples.

Results

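The 7 genes described here are TXNIP, the arrestin-domain genes ARRDC1, ARRDC2, ARRDC3 and ARRDC4, and the transcription factor genes MLXIP, which encodes MondoA, and MLX, which encodes its partner. They were chosen from the 12912 genes of the count table by gene symbol, and TXNIP was chosen for its rise in the contrast reported below. TXNIP is therefore described without a test, while its relatives and the transcription factors were entered by name as its family and its regulators. These relatives and factors, and the lists below, were also chosen with earlier results of these data known. All 7 symbols occurred a single time in the table, and all 7 genes passed the filter on low counts. The libraries come from 786-O, a cell line of clear cell renal carcinoma without functional VHL. The 786-O-Ctrl group (2 libraries) was VHL-null, and the 786-O-VHL group (2 libraries) was the subline in which VHL was restored by a retroviral vector for the HA-tagged protein. The labels of both groups carry TR, which the paper uses for triple-reporter cells with green fluorescent protein, luciferase and thymidine kinase. The paper's account of RNA sequencing names both sublines without TR. According to the labels, no drug or time point separated the groups. Each group is a single subline, so differences between sublines and the effect of VHL cannot be told apart.

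Alpha-arrestins are adaptor proteins with an arrestin fold that bring NEDD4-family ubiquitin ligases to membrane proteins, which are then taken up and degraded. TXNIP belongs to this family and also binds thioredoxin, and it is known for lowering glucose uptake by driving endocytosis of the glucose transporters GLUT1 and GLUT4. Its transcription follows the glucose 6-phosphate content of the cell through MondoA and MLX, which bind together at carbohydrate response elements, and ARRDC4 is the other well known alpha-arrestin target of this pair. In clear cell renal carcinoma the loss of VHL stabilizes HIF, which raises the transcription of glucose transporters and glycolytic enzymes.

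Levels are given as CPM, counts scaled to a common library total after multiplying each total by its TMM factor, and changes as log2 fold changes of 786-O-VHL over 786-O-Ctrl from edgeR's quasi-likelihood fit with their SE. A gene was called higher or lower at an FDR under 0.05, the Benjamini-Hochberg adjusted p of that test over the 12335 genes tested. The 786-O-Ctrl libraries held 22141263 and 15714166 counts and are named by depth below, as deeper and shallower. 786-O-VHL replicate 2 held 16114120 counts and replicate 1 held 2807779, so that 3 counts, the limit that a count of 0 allows, stood for 1.02 CPM in replicate 1 and for 0.142 to 0.199 CPM in the others. These limits cover counting error only. VHL itself was at 42.9 and 43.9 CPM in 786-O-Ctrl and at 178 and 163 CPM in 786-O-VHL (log2 fold change 1.96, SE 0.0706, edgeR FDR 2.86e-19). All 7 markers of kidney epithelium and of this carcinoma that were examined were present, PAX8 and keratins among them, with summed levels of 3158 and 3144 CPM in 786-O-Ctrl and of 1960 and 1818 CPM in 786-O-VHL. Most of that difference was VIM (vimentin, 1684 against 730 CPM on average), PAX8, PAX2 and KRT8 were lower as well, KRT18 was not called (log2 fold change -0.12, edgeR FDR 0.103), and CDH6 was higher (0.45, edgeR FDR 0.000144). Of 9 markers of other cell types only PECAM1 and COL1A1 were in the table, and together they stayed between 5.98 and 7.46 CPM. The part of these marker differences in the results below was not tested, and in such bulk libraries fewer cells of a type and less RNA per cell cannot be told apart.

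TXNIP (ENSG00000265972.5) lies on the plus strand of chromosome 1 in GRCh37 (hg19), from 145438490 to 145442635, and no other annotated gene overlaps it. Its counts were 1219 in the deeper and 872 in the shallower library of 786-O-Ctrl. The counts were 3525 in replicate 1 and 19605 in replicate 2 of 786-O-VHL. Its levels were 57.9 and 58.0 CPM in 786-O-Ctrl and 1196 and 1164 CPM in 786-O-VHL. The groups lay far apart, and the libraries of each group were close to each other, with means of 57.9 ± 0.0463 (SD, n = 2) and 1180 ± 22.3 CPM (SD, n = 2). The fitted log2 fold change was 4.35 (SE 0.0694), or 20.4-fold. TXNIP moved from rank 4049 and 4045 among the 12912 genes by CPM in the deeper and shallower 786-O-Ctrl library to rank 57 and 59 in the 786-O-VHL replicates. These ranks, and the order of gains in CPM below, are not adjusted for gene length.

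By the smallest p, TXNIP stood first among the 6304 genes with a positive log2 fold change, which is the sense in which its rise was the strongest. By log2 fold change it was at place 39 of 12335. The 38 genes above it were all scarce, with mean levels of at most 2.26 CPM in 786-O-Ctrl and of at most 49.3 CPM in 786-O-VHL. Just above it in that order stood OGDHL (log2 fold change 4.40), MMP7 (4.40) and ITGA11 (4.36), and just below it CASP1 (4.33), BTC (4.32) and INSR (4.30). Among the 10730 genes for which every library had at least 10 counts, TXNIP was at place 6. By the gain in level, 1122 CPM, it was at place 3, after FN1 (fibronectin, 7465 CPM) and PSAP (the saposin precursor, 1290 CPM) and before THBS1 (thrombospondin, 1061 CPM).

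The promoter letters of TXNIP and ARRDC4 are shown because these alpha-arrestin genes are the known targets of MondoA and MLX and because both were higher in 786-O-VHL. Each line gives the 250 bases before the RefSeq start, 5′ to 3′ on the plus strand, from the RefSeq promoter table (assembly GRCh38.p14), and each stretch was found at exactly 1 place of its GRCh37 chromosome, which gives the coordinates. Capitals mark the carbohydrate response element of TXNIP, which is a pair of CACGNG hexamers 5 bases apart, and the CACGTG E-box of ARRDC4.
TXNIP, chr1:145438240-145438489: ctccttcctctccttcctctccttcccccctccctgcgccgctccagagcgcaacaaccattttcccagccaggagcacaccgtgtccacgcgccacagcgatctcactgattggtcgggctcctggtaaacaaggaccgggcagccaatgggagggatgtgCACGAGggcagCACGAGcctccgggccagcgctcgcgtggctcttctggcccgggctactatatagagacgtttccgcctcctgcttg
ARRDC4, chr15:98503683-98503932: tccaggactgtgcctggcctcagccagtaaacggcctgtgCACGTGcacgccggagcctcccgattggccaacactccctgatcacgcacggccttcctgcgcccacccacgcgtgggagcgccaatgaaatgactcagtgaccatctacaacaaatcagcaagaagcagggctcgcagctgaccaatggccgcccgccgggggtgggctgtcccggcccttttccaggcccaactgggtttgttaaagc

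Motifs were searched only in the first RefSeq window of each gene. TXNIP, ARRDC2 and ARRDC3 have 2 such windows, and their second windows were not searched. In the TXNIP promoter the paired hexamers, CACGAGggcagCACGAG, ran from -88 to -72 relative to the start. CCAAT, the box bound by the NF-Y factor, occurred at -105 to -101 and, inverted, at -140 to -136. In the ARRDC4 promoter the E-box lay at -210 to -205, CCAAT occurred 3 times on either strand, and no hexamers were paired at that spacing. The paired form was searched as CACGNG or its reverse complement CNCGTG on both sides of 5 bases, and this motif was chosen after the TXNIP sequence had been seen. It was found in 22 of 27305 RefSeq promoters (0.0806%), whereas CACGTG was found in 1772 of them (6.49%) and CCAAT in 9021 (33.0%), and every CACGTG is also a CACGNG. Among the other members, MLX had 1 CACGTG at -50 to -45, and ARRDC1, ARRDC3, MLX and MLXIP each had 1 CCAAT. The core of the element bound by HIF, ACGTG or GCGTG, occurred in the TXNIP window as 2 GCGTG and no ACGTG, and in the ARRDC4 window as 4 GCGTG and 2 ACGTG, the last pair being both strands of the E-box. ARRDC2 and MLXIP each had 2 GCGTG as well, MLX had 1 GCGTG and 2 ACGTG, and ARRDC1 and ARRDC3 had neither core. Such cores are frequent, with GCGTG in 31.9% and ACGTG in 18.7% of all promoters. Besides TXNIP, 14 tested genes carried the paired hexamers, and 5 of them were higher, 5 lower and 4 not called, with a median log2 fold change of -0.06. These are 35.7% in each direction, near the 32.6% of all genes tested that were called higher and the 31.9% called lower. These matches describe letters only.

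ARRDC4 (ENSG00000140450.9), an alpha-arrestin that like TXNIP is known to lower glucose uptake, lies on the plus strand of chromosome 15 from 98503933 to 98517063, with no overlapping gene. It had 198 and 130 counts for 786-O-Ctrl against 150 and 803 for 786-O-VHL. The levels were 9.40 and 8.64 CPM in 786-O-Ctrl against 50.9 and 47.7 CPM in 786-O-VHL, and the groups did not overlap. ARRDC4 was higher in 786-O-VHL by a log2 fold change of 2.42 (SE 0.118, 5.36-fold, edgeR FDR 1.99e-16). ARRDC2 (ENSG00000105643.10; chromosome 19, 18111941 to 18124911, plus strand) is a less studied alpha-arrestin that, like its relatives, carries motifs for NEDD4-family ligases. Its levels were 23.8 and 24.8 CPM in 786-O-Ctrl and 34.6 and 44.3 CPM in 786-O-VHL, from 102 counts in replicate 1 and 746 in replicate 2. ENSG00000279172 overlaps ARRDC2 on the opposite strand, and reads of the pair cannot be told apart without strand. The groups did not overlap, but the 786-O-VHL replicates differed by 0.355 on the log2 scale, above the median of 0.159 over the genes tested. ARRDC2 was higher in 786-O-VHL with a log2 fold change of 0.78 (SE 0.107, edgeR FDR 2.98e-07), and without 786-O-VHL replicate 2 the value was 0.51 (edgeR FDR 0.0137).

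ARRDC3, an adaptor in the breakdown of integrin beta 4, and ARRDC1, which recruits the ESCRT protein TSG101 in the release of vesicles, were not called higher. ARRDC3 (ENSG00000113369.9; chromosome 5, 90664448 to 90679134, minus strand) was at 79.3 and 86.5 CPM in 786-O-Ctrl and at 79.4 and 72.8 CPM in 786-O-VHL. The groups overlapped, and the log2 fold change was -0.15 (95% confidence interval -0.30 to 0.0027, edgeR FDR 0.0796). ARRDC1 (ENSG00000197070.14; chromosome 9, 140500137 to 140509812, plus strand) was at 45.0 and 46.6 CPM in 786-O-Ctrl and at 41.0 and 38.7 CPM in 786-O-VHL. Its libraries did not overlap, and it was lower with a log2 fold change of -0.22 (SE 0.0888, edgeR FDR 0.0324). This call was lost in 6 of 10 alternatives, with an FDR of 0.195 in DESeq2 and with a log2 fold change of -0.09 (edgeR FDR 0.407) when counts were scaled by library totals alone. ARRDC3 and ARRDC1 each have an antisense gene on the opposite strand, ARRDC3-AS1 and ARRDC1-AS1, and ARRDC1 also overlaps ENSG00000283411 on its own strand. The use of strand in counting is not given in the sources used here, so reads of these partners cannot be told apart.

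For the transcription factor genes the differences were small. MLX (ENSG00000108788.11; chromosome 17, 40719090 to 40725257, plus strand), the obligate partner of MondoA in DNA binding, was at 36.6 and 37.4 CPM in 786-O-Ctrl and at 32.6 and 37.2 CPM in 786-O-VHL. The groups overlapped, with a log2 fold change of -0.03 (95% confidence interval -0.23 to 0.16, edgeR FDR 0.775). PSMC3IP overlaps MLX on the opposite strand and had a log2 fold change of -1.21. MLXIP (ENSG00000175727.14; chromosome 12, 122516628 to 122631894, plus strand), the gene of the glucose-sensing subunit, was at 96.6 and 94.5 CPM in 786-O-Ctrl and at 96.7 and 78.7 CPM in 786-O-VHL. It passed the threshold with a log2 fold change of -0.19 (SE 0.0768, edgeR FDR 0.0308), although 786-O-VHL replicate 1 lay above both 786-O-Ctrl libraries. Without 786-O-VHL replicate 2 the value was 0.01 (edgeR FDR 0.941), and the DESeq2 FDR was 0.238. Of the 6 genes tested, 2 were thus called higher (ARRDC4 and ARRDC2) and 2 lower (ARRDC1 and MLXIP), beside 32.6% of all genes tested called higher and 31.9% called lower, shares that also stand behind each list and neighborhood below. Both 786-O-VHL libraries lay above both 786-O-Ctrl libraries for ARRDC4 and ARRDC2 and below them for ARRDC1, beside 40.8% and 39.2% of all genes in these directions.

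**Figure D1:**
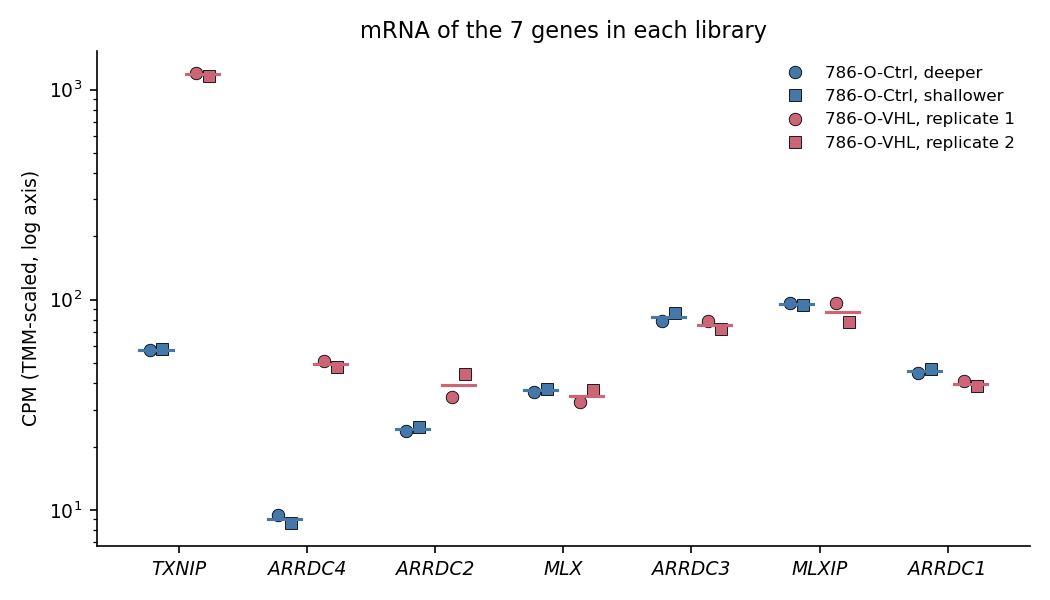
TMM-scaled CPM of the 7 genes on a log axis, with 1 point per library and a bar at the mean of each group. TXNIP sits near 57.9 CPM in 786-O-Ctrl and at 1164 and 1196 CPM in the 786-O-VHL libraries, ARRDC4 and ARRDC2 are apart in the same direction, and the points of ARRDC3, MLX and MLXIP overlap.

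**Figure D2:**
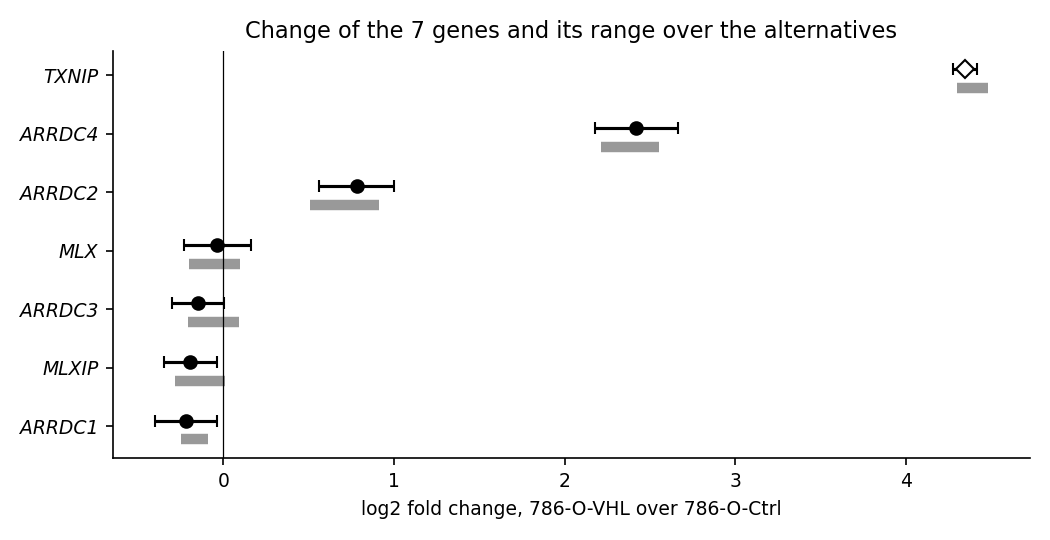
Log2 fold change of each gene, 786-O-VHL over 786-O-Ctrl, with thin bars for the 95% confidence interval (1 SE for TXNIP, the open diamond) and a gray bar for the range over the alternatives. TXNIP (4.30 to 4.48) and ARRDC4 (2.22 to 2.55) stay well above 0 in every setting shown, while ARRDC3, MLX and MLXIP fall on both sides of it.

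Compared per length, as RPKM (CPM per kilobase of all annotated exons of the gene), the order of the genes differed between the groups. In 786-O-Ctrl, ARRDC3 (mean 16.6 RPKM) and TXNIP (16.1 RPKM) stood at the top with overlapping libraries, followed by ARRDC1 (12.1), MLX (8.69), MLXIP (6.87), ARRDC2 (5.24) and ARRDC4 (2.22 RPKM). In 786-O-VHL, TXNIP stood at 328 RPKM, followed by ARRDC3 (15.3), ARRDC4 (12.1), ARRDC1 (10.5), ARRDC2 (8.51), MLX (8.20) and MLXIP (6.31 RPKM). Neighbors in this order overlapped for ARRDC2 and MLX, and ARRDC4 stood last in 786-O-Ctrl and at place 3 in 786-O-VHL. With the length of the longest transcript in place of all exons ARRDC4 was again last in 786-O-Ctrl but at place 5 in 786-O-VHL. There it was at 12.1 RPKM, behind MLX (13.5) and ARRDC1 (12.5 RPKM). The 786-O-VHL libraries of ARRDC1 overlapped with those of ARRDC4. Both MLX libraries (12.59 and 14.40 RPKM) lay above both ARRDC4 libraries (12.53 and 11.74 RPKM).

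TXNIP made up 31.4% and 30.3% of the RPKM summed over the 5 alpha-arrestin genes in 786-O-Ctrl against 87.7% and 87.5% in 786-O-VHL. The sum itself was 51.3 and 53.2 RPKM in 786-O-Ctrl and 379 and 370 RPKM in 786-O-VHL. Set against ARRDC3, TXNIP was at 1.01 and 0.929 times its RPKM in 786-O-Ctrl and at 20.9 and 22.2 times in 786-O-VHL. Against its binding partner TXN, the cytosolic thioredoxin, TXNIP was at 0.0458 and 0.0471 times the RPKM in 786-O-Ctrl and at 1.84 and 1.91 times in 786-O-VHL, so that the TXNIP transcript passed that of thioredoxin. MLXIP was at 0.809 and 0.773 times the RPKM of MLX in 786-O-Ctrl and at 0.908 and 0.647 times in 786-O-VHL, and these ranges overlapped.

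**Figure D3:**
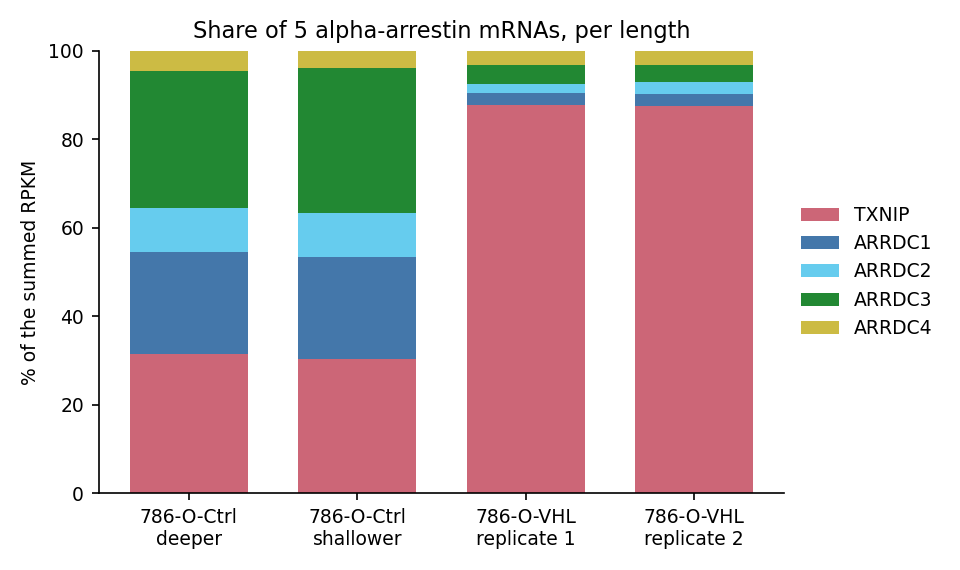
Share of each alpha-arrestin gene in their summed RPKM, with 1 stacked bar per library. TXNIP takes 30.3% to 31.4% in the 786-O-Ctrl libraries and 87.5% to 87.7% in the 786-O-VHL libraries.

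The genes whose pattern over the 4 libraries was most like that of TXNIP were SYTL1, BTC, STRA6, ITGA11 and OGDHL. Likeness was the Euclidean distance of mean-centred log2 CPM values over 10730 genes, and it was 0.130 for SYTL1, a synaptotagmin-like protein of vesicle transport, and 0.208 for BTC, the growth factor betacellulin. For STRA6, the retinol uptake receptor, the distance was 0.299, for ITGA11, an integrin subunit, 0.354, and for OGDHL, a relative of the oxoglutarate dehydrogenase subunit, 0.412. All of them had lower levels than TXNIP, with 786-O-Ctrl means between 1.28 and 1.96 CPM and 786-O-VHL means between 25.4 and 35.3 CPM. With 2 libraries per group this measure mainly sorts genes by the size of their difference between the groups.

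The other members of the network in which MondoA and MLX act were tested as a list of 9 genes, of which 7 were higher, 2 lower and 0 not called, with a median log2 fold change of 0.83 beside 0.02 over all genes tested. MYC, the growth-promoting factor that binds DNA with MAX, was at 158 and 158 CPM in 786-O-Ctrl and at 384 and 446 CPM in 786-O-VHL (log2 fold change 1.41). Also higher were MYCL (1.65), a relative of MYC, and the repressors MXD1 (1.53) and MXI1 (0.85). MYCL rested on 30 and 20 counts in 786-O-Ctrl and 9 and 80 counts in 786-O-VHL. Lower were the repressors MXD3 (-1.33) and MXD4 (-0.37). MLXIPL, the gene of ChREBP, had no row in the count table, so it was not tested.

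Genes known as targets of MondoA or ChREBP, other than the members, were mostly lower. Of 12 tested, 2 were higher and 9 lower, with a median log2 fold change of -0.64. KLF10, a factor induced by glucose and by TGF-beta, was at 63.7 and 59.3 CPM in 786-O-Ctrl and at 192 and 199 CPM in 786-O-VHL (log2 fold change 1.67). TKFC, a kinase of fructose metabolism, was the other gene called higher (0.98). FASN, the fatty acid synthase, was at 673 and 604 CPM in 786-O-Ctrl and at 154 and 149 CPM in 786-O-VHL (-2.08). SCD (-1.55) and ELOVL6 (-1.29), which desaturate and elongate fatty acids, and LDHA (-1.11), the lactate dehydrogenase subunit, were lower as well. The fatty acid genes of this list are also known targets of SREBP factors, and LDHA is also a known HIF target.

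Genes of glucose uptake, of hexose phosphorylation and of the steps around glucose 6-phosphate, the metabolite to which MondoA responds, were mostly lower, with 3 of 12 higher, 8 lower and a median log2 fold change of -0.48. SLC2A1, the gene of GLUT1, was at 1375 and 1358 CPM in 786-O-Ctrl and at 396 and 451 CPM in 786-O-VHL (log2 fold change -1.68). HK1 (-0.98) and HK2 (-0.57), the hexokinases that form glucose 6-phosphate, and GPI (-0.82), the isomerase that uses it, were lower. HKDC1, a further hexokinase gene, went the other way, from 82.4 and 79.8 CPM in 786-O-Ctrl to 395 and 416 CPM in 786-O-VHL (2.33). The other genes called higher were SLC2A3, the gene of GLUT3 (0.32), and PFKM, a phosphofructokinase subunit (0.18). The count of higher genes in this list was 1 with DESeq2, without the deeper 786-O-Ctrl library and without 786-O-VHL replicate 2.

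In the thioredoxin system, which TXNIP binds and inhibits, 3 of 13 genes were higher, 4 lower and 6 not called, with a median log2 fold change of -0.08. TXN was at 355 and 346 CPM in 786-O-Ctrl and at 182 and 172 CPM in 786-O-VHL (log2 fold change -0.999), so it was lower where TXNIP was high. PRDX1 (-1.92), a peroxiredoxin that takes electrons from thioredoxin, was lower. So were the peroxiredoxin PRDX4 (-0.64) and SRXN1 (-0.48), which repairs peroxiredoxins. MAP3K5 (0.58), the kinase ASK1 that thioredoxin holds in check, and TXNRD1 (0.42), the cytosolic thioredoxin reductase, were higher.

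Among the NEDD4-family ligases and their adaptors, 6 of 11 genes were higher and 5 lower, with a median log2 fold change of 0.22. ITCH, a ligase that acts on TXNIP, was at 138 and 139 CPM in 786-O-Ctrl and at 181 and 178 CPM in 786-O-VHL (log2 fold change 0.37). HECW1 (0.69), NEDD4L (0.62) and HECW2 (0.59) were higher. WWP1 (-0.60), NEDD4 (-0.40), the adaptor NDFIP2 (-0.38) and SMURF2 (-0.37) were lower. These changes were below 1 on the log2 scale in each of the genes.

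Cargo and binding partners of alpha-arrestins were spread over both directions, with 3 of 10 higher, 5 lower and a median log2 fold change of -0.16. INSR, the insulin receptor, was higher (log2 fold change 4.30), but it rested on 2 and 5 counts in 786-O-Ctrl and 14 and 64 counts in 786-O-VHL. ITGB4, the integrin known as ARRDC3 cargo, was at 6.22 and 6.38 CPM in 786-O-Ctrl and at 41.0 and 46.7 CPM in 786-O-VHL (2.84). TSG101, which ARRDC1 binds, was higher as well (0.51). Besides SLC2A1, NLRP3, the inflammasome sensor that TXNIP can bind, was lower (-1.26). NLRP3 rested on 87 and 87 counts in 786-O-Ctrl and 7 and 33 counts in 786-O-VHL. Also lower were the receptors NOTCH1 (-0.45) and F2R (-0.40), and SLC11A2, an iron transporter (-0.25), which was outside the naming rule. The count of lower genes was 2 without 786-O-VHL replicate 2.

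Of 6 tested genes with an arrestin fold outside the alpha-arrestins, 2 were higher and 2 lower, and the median log2 fold change was 0.12. The beta-arrestins, which end the signaling of G protein-coupled receptors, moved in opposite directions. ARRB1 was at 31.2 and 28.8 CPM in 786-O-Ctrl and at 16.6 and 14.1 CPM in 786-O-VHL (log2 fold change -1.04), and ARRB2 was at 16.7 and 16.4 CPM in 786-O-Ctrl and at 23.1 and 23.4 CPM in 786-O-VHL (0.49). VPS26C, a subunit of the retriever complex, was higher (0.25), and VPS26A, a retromer subunit, was lower (-0.23). Without the deeper 786-O-Ctrl library 1 gene of this list was higher and 1 lower, without 786-O-VHL replicate 2 the higher count was 1, and in thinned libraries it was 0 (1 at an unadjusted p under 0.05 in edgeR), against 1 with DESeq2.

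The remaining lists held other factors known to act at the TXNIP promoter and genes induced, as TXNIP can be, by glucocorticoids. Of the 10 promoter factors tested, 8 were higher, 2 not called and 0 lower, with a median log2 fold change of 0.39. VDR, the vitamin D receptor (1.65), PPARG (0.82), a nuclear receptor of fat cells, KLF6 (0.70) and the NF-Y subunit NFYB (0.46) led them. Of the 7 glucocorticoid-induced genes, 5 were higher, 2 not called and 0 lower, with a median of 0.69. KLF9 (1.33), TSC22D3 (1.22), SGK1 (0.75) and CEBPD (0.69) were the largest of these. The genes not called, outside the naming rule, were FKBP5 (-0.10) and ERRFI1 (0.01). For FKBP5 both 786-O-VHL libraries lay below both 786-O-Ctrl libraries. The count of lower genes in both lists was also 0 at an unadjusted p under 0.05 in edgeR, and in DESeq2. Over all 88 list genes, each taken a single time, 39 were higher, 33 lower and 16 not called, with a median log2 fold change of 0.01, beside 32.6% and 31.9% of all genes called in these directions.

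**Figure D4:**
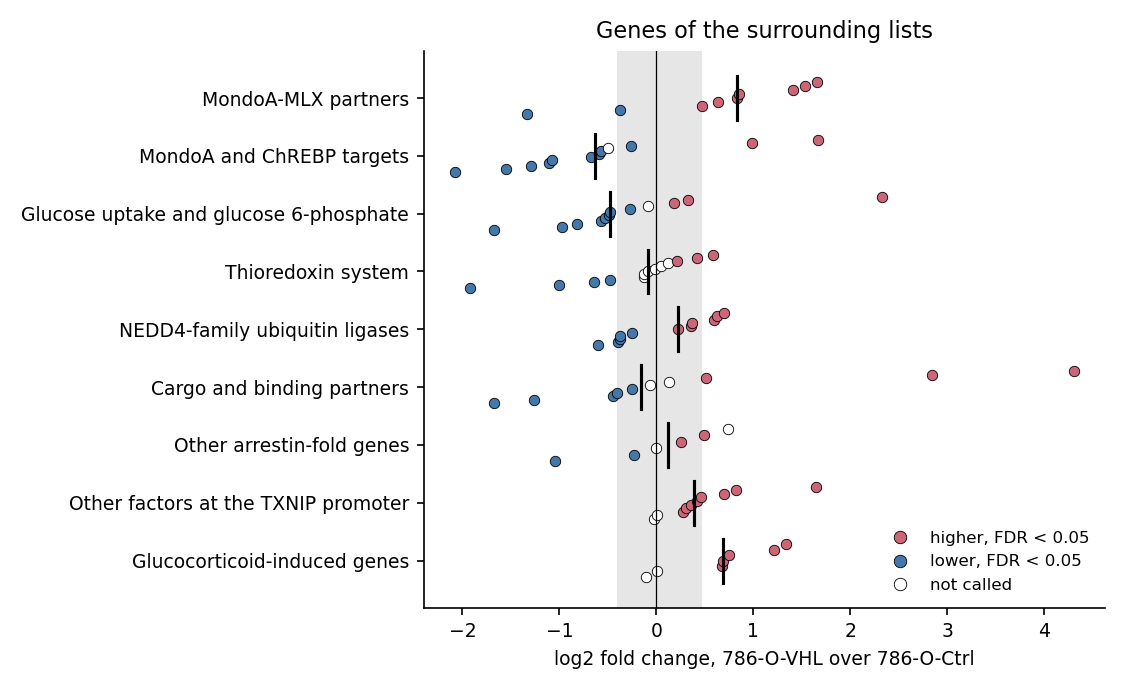
Log2 fold change of each tested list gene, 786-O-VHL over 786-O-Ctrl, with 1 row of points per list, colored by call, a bar at its median and a gray band for the middle quartiles of all genes tested (-0.40 to 0.46). The medians run from -0.64 for the MondoA and ChREBP targets to 0.83 for the MondoA and MLX partners, beside 0.02 over all genes tested.

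Genes next to TXNIP on chromosome 1 did not share the size of its rise. Of 17 tested genes starting within 500 kb, 2 were higher, 5 lower and 10 not called, with log2 fold changes from -0.61 to 1.27, beside 32.6% higher and 31.9% lower among all genes tested. Distances here and for ARRDC4 run between the starts of genes, and the bodies of genes can lie closer. By start, the nearest tested gene at higher coordinates was POLR3GL, an RNA polymerase III subunit gene, at 31.9 kb. Its levels were 10.2 and 8.24 CPM in 786-O-Ctrl and 14.9 and 8.79 CPM in 786-O-VHL (0.12, edgeR FDR 0.608). Next came ANKRD34A (1.01, 1.33 to 3.73 CPM over the libraries, edgeR FDR 0.0170) and LIX1L (-0.22, edgeR FDR 0.0152). PDZK1, a scaffold protein of kidney transporters, was the other gene called higher (1.27) and is named because of its value. At lower coordinates the nearest tested genes started 229 kb away, namely NBPF10, AC242843.1 and NOTCH2NLA, none of which was called. They belong to families of near-identical copies, so their counts are uncertain.

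No tested gene started within 500 kb of ARRDC4. The nearest on either side were IGF1R, the receptor of insulin-like growth factors, at 688 kb (log2 fold change 0.13, edgeR FDR 0.260), and NR2F2, a nuclear receptor, 1635 kb towards lower coordinates (-0.30, edgeR FDR 0.000434). Farther out at lower coordinates, MCTP2 (0.75, edgeR FDR 8.13e-05) and the chromatin remodeler gene CHD2 (1.02, edgeR FDR 4.31e-13) were higher. At higher coordinates SYNM, an intermediate filament gene, was lower (-0.85, edgeR FDR 2.69e-06), and TTC23 was not called (0.30, edgeR FDR 0.0603). All of these lay farther from ARRDC4 than IGF1R. No tested gene started within 500 kb of ARRDC3 either. Over the neighbors of all members that had any, 30 of 105 were higher, 34 lower and 41 not called. Their median log2 fold change was 0.0047, and the called shares are near the 32.6% and 31.9% of all genes tested.

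**Figure D5:**
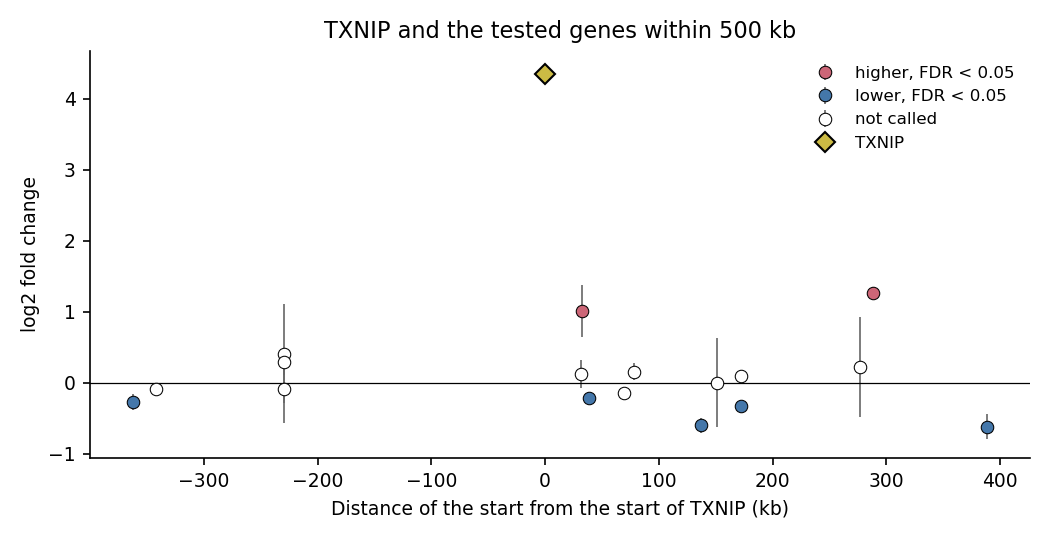
Log2 fold change of the genes tested near TXNIP, 786-O-VHL over 786-O-Ctrl, against the distance from its start in kilobases, with bars of 1 SE. TXNIP stands at 4.35, and its 17 neighbors lie between -0.61 and 1.27.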

How the data were processed

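Total RNA was sequenced from 2 libraries of 786-O-Ctrl and from 2 of 786-O-VHL. The authors aligned reads to hg19, with CASAVA and STAR named in the submitters' processing notes, and deposited raw counts per gene without normalization. For the counting tool, strand and annotation the entry is: not given in the sources used here. Both 786-O-Ctrl columns carry the same replicate number and are told apart by depth, as deeper and shallower. Nothing states that replicates were separate cultures, so p-values measure only the spread between these libraries, and an exact permutation of 2 against 2 cannot go below 0.333.

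The test on the counts of 12912 genes was that of edgeR 4.0.16 under R 4.3.3 (filterByExpr at a minimum count of 10, TMM, quasi-likelihood F test, Benjamini-Hochberg over 12335 genes). Groups were the only term. RPKM used exon lengths of a GRCh37 annotation (GENCODE). Promoters came from RefSeq. Members and lists were chosen with earlier results of these data known, and lists were described by counts and medians without a set test. Named were all members, VHL, MLXIPL, TXN, ITCH, NEDD4, NEDD4L, SLC2A1, ARRB1 and ARRB2, the 3 nearest tested genes on each side of TXNIP and ARRDC4, the genes next to TXNIP by fold change, the 5 most like it, and up to 4 genes per list and direction with the largest change past the threshold and no overlap. A further gene of this rule is not reported here. Alternatives were DESeq2 1.42.0, RLE factors, library totals, no filter, at least 10 counts in every library, thinning to the shallowest library, and leaving out each library.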

Additional observations from a re-analysis of the deposited data

How the results depend on the processing

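ARRDC4 and ARRDC2 were called higher under all 10 alternatives, with log2 fold changes of 2.22 to 2.55 and 0.51 to 0.92, and TXNIP, which was not tested, had 4.30 to 4.48. The lower calls among ARRDC and MLX genes, 2 in the reported fit (ARRDC1 and MLXIP), were 0 with DESeq2, with library totals alone and with thinning to the shallowest library. At an unadjusted p under 0.05 these settings also gave 0, and leaving out a library gave 0 to 3 (with ARRDC3 at -0.18, edgeR FDR 0.0224, without 786-O-VHL replicate 1). MLXIP ranged from -0.28 without 786-O-VHL replicate 1 to 0.01, a reversal (0.0099), without 786-O-VHL replicate 2. The uncalled ARRDC3 ran from -0.21 to 0.09 and MLX from -0.20 to 0.10. Library totals alone moved the median of all genes by 0.13 and gave 5077 higher and 3097 lower calls (62.1% higher, against 50.5% of 4017 and 3939 calls in the reported fit). List genes called higher ranged from 29 to 42 (39 reported) and lower from 26 to 34 (33). Thioredoxin genes called higher were 5 with library totals alone (3 reported), and NEDD4-family genes called lower were 3 in thinned libraries (5). Cargo and binding partner genes called lower were also 3 in thinned libraries (5). With a library left out, all list genes together ranged from 29 to 40 and from 27 to 34. Neighbors called higher ranged from 23 to 42 (30 reported), and 23 to 31 with a library left out. Neighbors called lower ranged from 23 to 38 (34) with a library left out, the lowest without 786-O-VHL replicate 2, and fell to 21 in the thinned libraries, where fewer genes were tested. With the longest transcript as length TXNIP was at place 1 in 786-O-Ctrl, not 2, and ARRDC4 at place 5 in 786-O-VHL, not 3. Where no cause is named, the cause was not tested. DESeq2 and thinning called 2861 and 2865 genes higher and 3147 and 2885 lower. No paired analysis was possible because both 786-O-Ctrl columns carry the same replicate number, and the planned replicate block was not run. The 2807779 counts of 786-O-VHL replicate 1 limit the precision of genes with few counts.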
